A study of Mus musculus with 4 samples.

Results

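The 5 genes described here encode proteins that bind calcium or the calcium sensor calmodulin: Calb2 (calretinin), Pcp4 (Purkinje cell protein 4), Calm2 and Calm3 (calmodulin) and Ncs1 (neuronal calcium sensor 1). They were chosen by gene symbol from the 11747 rows of the deposited table of normalized read counts, and each of the 5 had a row. Their response in these libraries was known when they were chosen, so their own differences are a description: no p-value is given for them, and nothing is read from their calls or intervals. The cells are motor neuron cultures grown from mouse embryonic stem cells of the A172LoxP line, which carries a transcription factor transgene that is switched on by adding doxycycline. Cell aggregates (embryoid bodies) of both groups received 0.5 µM retinoic acid and 1 µM purmorphamine, which activates Sonic hedgehog signalling, for 2 days. One group, 2 libraries numbered 2 and 8 in the table, was then cultured for 2 to 3 days with 2 µg/mL doxycycline, and the other, 2 libraries numbered 1 and 7, for the same time with vehicle. RNA was sequenced in bulk, so fewer cells of a type and less RNA per cell cannot be told apart. The labels do not tell whether a group's libraries are separate cultures, so the p-values below reflect only how far these libraries differ, possibly for technical reasons.

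Neurons keep free calcium low at rest and let it rise briefly when they fire. Buffers such as calretinin, an EF-hand protein that marks subsets of interneurons and sensory neurons, take up part of that calcium, while sensors such as calmodulin and Ncs1 change shape on binding it and switch enzymes and channels on or off. Pcp4, also called PEP-19, is a small protein whose IQ motif binds calmodulin and alters how fast calmodulin exchanges calcium. Ncs1 is tethered to membranes and takes part in transmitter release and phosphoinositide signalling. Calm2 and Calm3 lie on different chromosomes and encode the same protein.

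The coding sequences of Calm2 and Calm3 show how far their reads can be told apart. In GENCODE transcripts on GRCm38, matched by RefSeq accession, each codes for 149 amino acids in 447 bases. Calm2 and Calm3 differed at 78 of the 447 bases and at 0 amino acids, and their longest identical stretch was 17 bases. The 90 bases of the coding sequence in which both genes differ most, coding bases 178 to 267 counted from the first base of the start codon, are given below with the 20 positions at which they differ in capitals.
Calm2: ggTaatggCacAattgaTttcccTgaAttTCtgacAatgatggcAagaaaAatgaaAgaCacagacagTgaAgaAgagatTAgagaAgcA
Calm3: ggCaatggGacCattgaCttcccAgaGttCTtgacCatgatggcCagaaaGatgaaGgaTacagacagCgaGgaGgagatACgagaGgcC
The capitals are spread over the whole stretch and none of them changes the protein. Processed copies of calmodulin genes elsewhere in the genome were not examined, and the sources used here do not give how reads with several matches were counted, so the values of single calmodulin genes are uncertain to that extent. How strand was handled is not given either, but no member overlaps a gene on the opposite strand in the annotation. Pcp4 overlaps Igsf5, which has no row, on its own strand, while Calb2, Calm2, Calm3 and Ncs1 overlap no gene in the annotation.

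The sequences just upstream of the genes differ in composition. The RefSeq promoter table on GRCm38.p6 holds an entry for Pcp4, Calm3 and Ncs1 and none for Calb2 or Calm2. The 250 bases before the start of Pcp4, the member with the larger counts among the higher ones, and of Calm3, a member that was lower, are shown to set them side by side. Capitals mark the homeodomain core TAAT and TGACG, the half-site of the cAMP response element, each searched on both strands. The other motifs searched on both strands were TAATTA, which contains the homeodomain core, the TATA box as TATAAA, and the CCAAT box.
Pcp4 (chr16:96467356-96467605, plus strand): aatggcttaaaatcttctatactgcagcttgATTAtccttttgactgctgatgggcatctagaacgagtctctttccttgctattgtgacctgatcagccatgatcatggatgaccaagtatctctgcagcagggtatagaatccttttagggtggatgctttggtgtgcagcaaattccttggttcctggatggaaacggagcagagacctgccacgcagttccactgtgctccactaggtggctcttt
Calm3 (chr7:16924033-16924282, minus strand): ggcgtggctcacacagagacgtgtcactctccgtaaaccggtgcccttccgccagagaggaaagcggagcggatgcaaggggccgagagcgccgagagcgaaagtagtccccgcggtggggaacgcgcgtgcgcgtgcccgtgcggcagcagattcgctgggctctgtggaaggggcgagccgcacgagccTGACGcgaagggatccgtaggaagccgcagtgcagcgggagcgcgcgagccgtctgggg
The Pcp4 window held 3 CG dinucleotides and 46.8% G and C, and 29.0% of the 32851 windows in the table had fewer CG. The Calm3 window held 33 CG and 69.2% G and C, and 96.0% of windows had fewer CG. The Ncs1 window, with 34 CG and 75.6% G and C, resembled that of Calm3 in composition. TAAT occurred once in the Pcp4 window, 219 bases before the start, and in 54.9% of all windows. TGACG occurred once in the Calm3 window, 59 bases before the start, and in 17.8% of all windows. TAATTA, found in 4.84% of all windows, was in none of the windows of Pcp4, Calm3 and Ncs1. The same was so for TATAAA, found in 12.4% of all windows, and for CCAAT, found in 33.9%.

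Calb2 and Pcp4 were each about 4-fold higher with doxycycline. Calb2 had 113 and 91.7 normalized counts in libraries 2 and 8 with doxycycline, against 25.9 and 21.5 in libraries 1 and 7 with vehicle. Both doxycycline libraries stood above both vehicle libraries, and the gap was several times the difference between the libraries of either group. The means were 102 ± 15.2 with doxycycline and 23.7 ± 3.15 with vehicle (SD, n = 2 each), a fold of 4.32. On the log2(normalized count + 1) scale, where genes with low counts show too small a change, the difference was 2.06 ± 0.32 (SE), the 8th highest of all 11747 rows.

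Pcp4 had 166 and 211 normalized counts in libraries 2 and 8 with doxycycline, against 48.3 and 40.8 in libraries 1 and 7 with vehicle. Again the groups did not overlap, but the library with the higher value among the doxycycline pair was 8 for Pcp4 and 2 for Calb2. The means were 189 ± 31.5 with doxycycline and 44.5 ± 5.28 with vehicle (SD, n = 2 each), a fold of 4.23 and a log2 difference of 2.05 ± 0.24 (SE), the 9th highest. Setting library 2 against 1 and 8 against 7 gave ratios of 4.37 and 4.27 for Calb2, and of 3.44 and 5.17 for Pcp4. The Calb2 ratio was nearly the same in both settings, whereas the Pcp4 ratio varied more.

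Both genes rested on few reads. The low values of each library lie on whole multiples of a step, read here as the value of 1 read, which puts Calb2 at an estimated 96 and 104 reads in libraries 2 and 8 with doxycycline, against 29 and 20 in libraries 1 and 7 with vehicle. For Pcp4 the estimates were 141 and 239 reads with doxycycline and 54 and 38 with vehicle. Per estimated depth, the ratio of doxycycline to vehicle reads was 4.27 for Calb2, with an exact Clopper-Pearson 95% interval of 3.11 to 5.96, and 4.32 for Pcp4, with an interval of 3.43 to 5.49. These intervals cover counting error only and, for genes chosen for this difference, are no test of it. No row of the table stays under 101 estimated reads in all 4 libraries. Calb2 reached that only in library 8 and Pcp4 only in the libraries with doxycycline, so both are in the table through the group in which they are high.

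**Figure D1:**
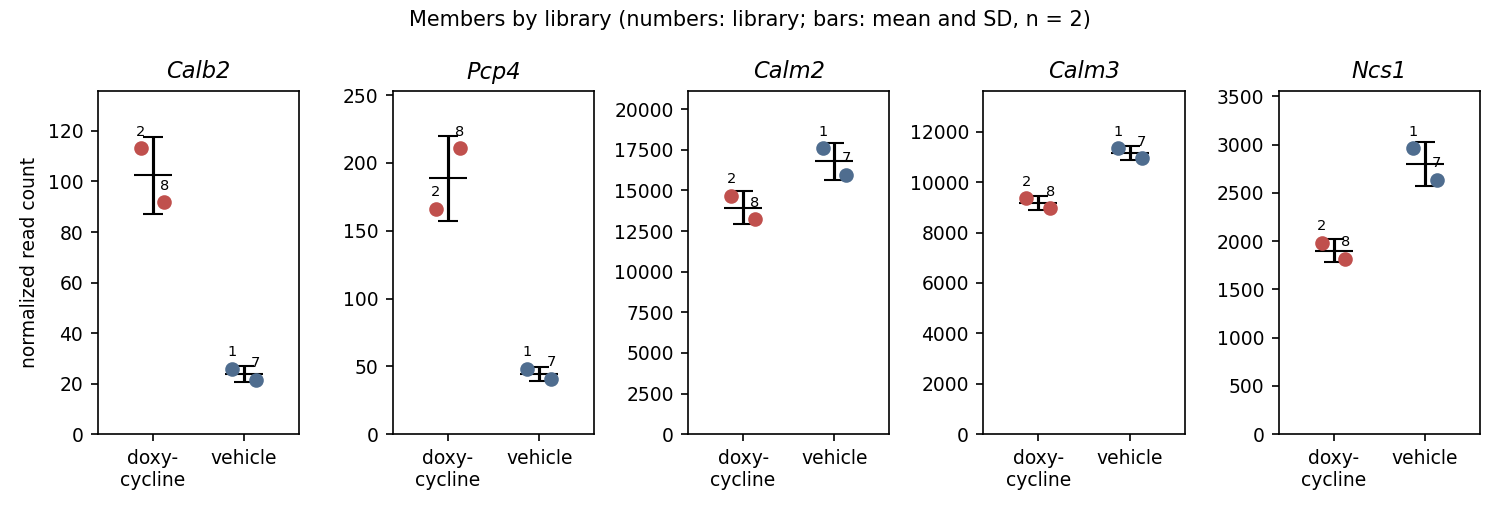
Normalized read counts of the 5 genes in each library, with doxycycline on the left and vehicle on the right of each panel. Points are libraries with their numbers, and bars are the mean and SD of n = 2; each vertical axis starts at 0 and has its own range. Calb2 and Pcp4 are above, and Calm2, Calm3 and Ncs1 below, in both doxycycline libraries relative to both vehicle libraries.

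Calm2 and Calm3 were lower with doxycycline by a small and similar amount. Calm2 had 14665 and 13223 normalized counts in libraries 2 and 8 with doxycycline, against 17595 and 15962 in libraries 1 and 7 with vehicle. Calm3 had 9363 and 8972 with doxycycline, against 11347 and 10957 with vehicle. For both genes the groups did not overlap, and the lower library of each pair was the one with the higher column number, 8 and 7. The means of Calm2 were 13944 ± 1019.5 with doxycycline and 16778 ± 1155 with vehicle (SD, n = 2 each), which is 16.9% lower, with a log2 difference of -0.27 ± 0.08 (SE). Those of Calm3 were 9167 ± 277 and 11152 ± 276, which is 17.8% lower, with a log2 difference of -0.28 ± 0.06. For Calm2 the gap between the highest doxycycline and the lowest vehicle library was smaller than the difference between the libraries of a group, and for Calm3 it was larger.

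The sum of Calm2 and Calm3 was 24028 and 22195 normalized counts with doxycycline, against 28942 and 26919 with vehicle, a fold of 0.827. The split of that sum moved little. Calm2 supplied 61.0% and 59.6% of it in libraries 2 and 8, against 60.8% and 59.3% in libraries 1 and 7, and the groups overlapped. The ratio of Calm2 to Calm3 counts was 1.57 and 1.47 with doxycycline and 1.55 and 1.46 with vehicle, so libraries 2 and 1 resembled each other more than the libraries of a group did.

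Relative to vehicle, Ncs1 was lower by more than Calm2 and Calm3 were. It had 1984 and 1819.7 normalized counts in libraries 2 and 8 with doxycycline, against 2963 and 2638 in libraries 1 and 7 with vehicle. The groups did not overlap, and the gap of the group means was larger than the difference between the libraries of either group. The means were 1902 ± 116 with doxycycline and 2801 ± 230.05 with vehicle (SD, n = 2 each), which is 32.1% lower, with a log2 difference of -0.56 ± 0.09 (SE). The ratio of Ncs1 to Calm2 counts was 0.135 and 0.138 with doxycycline, against 0.168 and 0.165 with vehicle. Relative to Calm2, Ncs1 was thus lower in both doxycycline libraries than in both vehicle libraries.

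Of the 5 genes, Calb2 and Pcp4 were called higher by the limma test over all rows, as were 0.579% of the 11747 rows. Ncs1 was called lower, as were 1.79% of rows, and Calm2 and Calm3 were not called. In all, the test called 2.37% of rows. The groups did not overlap for any of the 5 genes, as was the case for 53.2% of all rows, 26.7% higher and 26.5% lower with doxycycline. The calls of the 5 genes depended on single libraries. Without library 1 only Pcp4 was called, without library 7 Pcp4 and Ncs1, and without library 2 or library 8, the doxycycline libraries, 0 of the 5. Since the genes were proposed from this comparison, nothing is read from these counts. Since the groups do not overlap, leaving out a library cannot turn a direction. It gave log2 differences of 1.91 to 2.21 for Calb2, 1.88 to 2.22 for Pcp4, -0.34 to -0.19 for Calm2, -0.31 to -0.25 for Calm3 and -0.64 to -0.47 for Ncs1.

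Levels of different genes were compared per kilobase of the transcript that carries the row's accession, from 641 bases for Pcp4 to 4653 for Ncs1. On this scale Calm2 stood first, with 11572 ± 846 normalized counts per kilobase with doxycycline and 13924 ± 958 with vehicle (SD, n = 2 each). Calm3 followed with 4003 ± 121 and 4870 ± 120.4, then Ncs1 with 409 ± 24.99 and 602 ± 49.4. Pcp4 had 294 ± 49.2 per kilobase with doxycycline and 69.5 ± 8.23 with vehicle, and Calb2 had 71.6 ± 10.6 and 16.6 ± 2.20. The order Calm2, Calm3, Ncs1, Pcp4, Calb2 was the same in every library, and each neighbouring pair was separated by more than the SDs of its members. Pcp4 with doxycycline came nearest to its neighbour, with 329 per kilobase in library 8 against 391 for Ncs1 in the same library. The sources used here do not give whether reads were counted over whole transcripts. Per kilobase of coding sequence the order of the 5 genes was the same, from 31195 for Calm2 to 126 for Calb2 with doxycycline and from 37535 for Calm2 to 29.1 for Calb2 with vehicle.

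**Figure D2:**
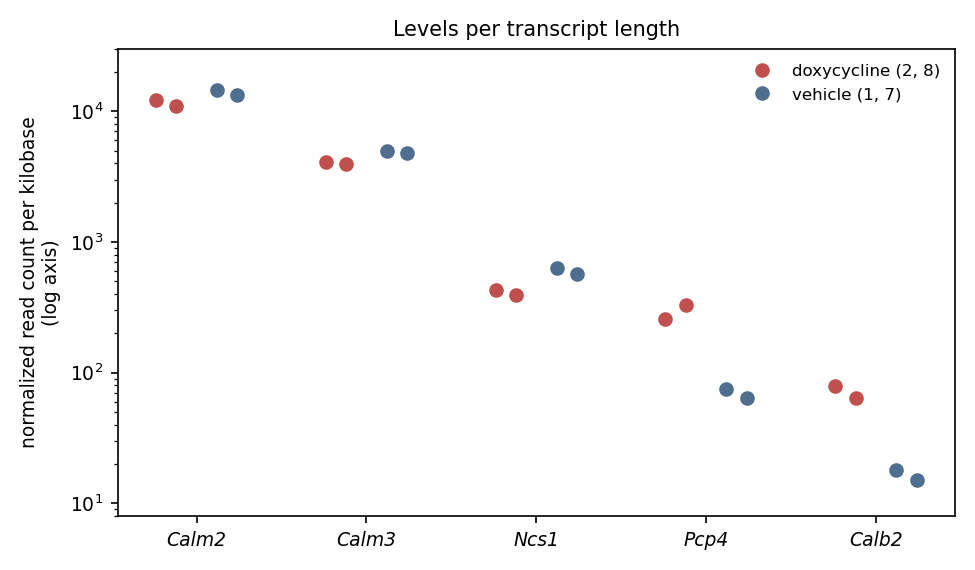
Normalized read counts per kilobase of transcript on a log axis for the 5 genes, each point 1 library, with the doxycycline libraries (2 and 8) left of the vehicle libraries (1 and 7). Calm2 lies highest and Calb2 lowest in both groups, and Pcp4 with doxycycline, at 259 and 329, comes close to Ncs1, at 426 and 391.

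The genes whose profile over the 4 libraries was most like that of a member were taken by the smallest Euclidean distance between log2 values centred on each gene's mean, among 10800 other named rows with a mean of at least 50. The nearest profile to Calb2 was Pcp4, at a distance of 0.45, and Calb2 in turn was the nearest to Pcp4, with no other row within 0.5 of either. After Pcp4, the nearest to Calb2 were Cartpt, a neuropeptide gene (0.57), Cabp7, which encodes an EF-hand calcium-binding protein of the calmodulin superfamily (0.64), Pmfbp1 (0.72) and Tmem163 (0.75). After Calb2, the nearest to Pcp4 were Tmem163 (0.56), Cartpt (0.59), Calca, which encodes calcitonin and CGRP (0.60), and Insl6, an insulin-like peptide gene (0.69). Cabp7 had 163 and 117 normalized counts with doxycycline, against 59.9 and 39.7 with vehicle. Tmem163 had 178 and 234 with doxycycline, against 77.8 and 66.6 with vehicle. All of these rows were higher in both doxycycline libraries, and the search over 4 libraries, which mostly orders genes by the size of that difference, says nothing more about what they share.

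**Figure D3:**
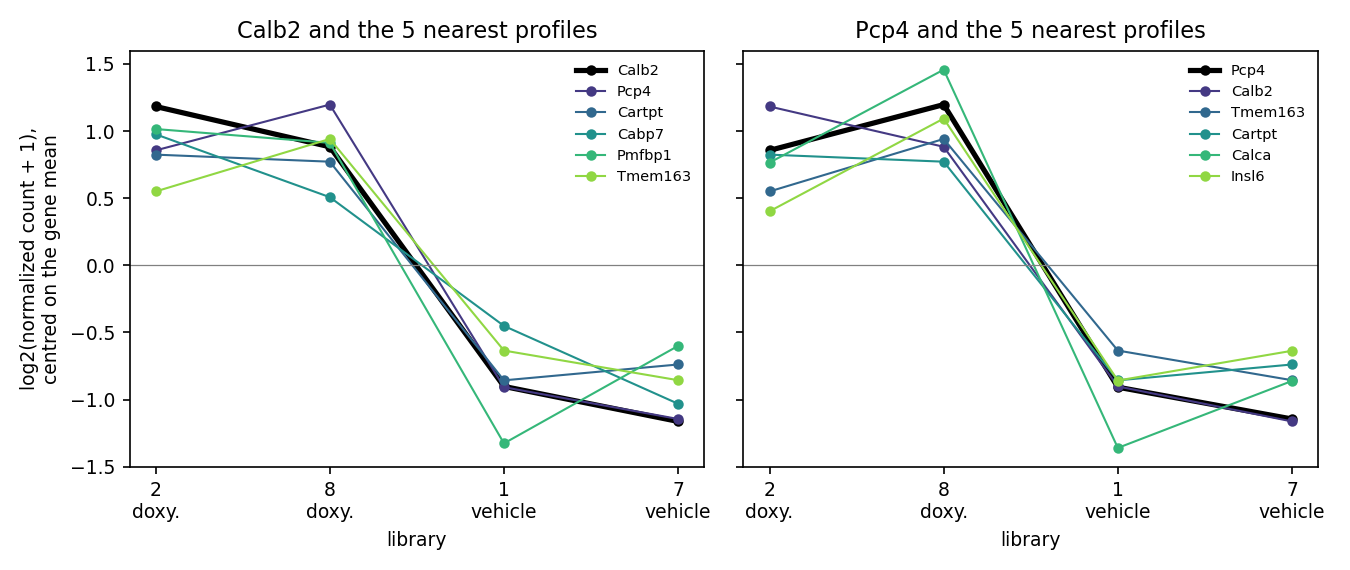
log2(normalized count + 1) centred on each gene's mean over the 4 libraries, for Calb2 (left) and Pcp4 (right) in black and their 5 nearest rows in colour, with the doxycycline libraries left of the vehicle libraries; lines only join the values of a gene. Every plotted gene is above 0 in libraries 2 and 8 and below 0 in libraries 1 and 7, and the genes differ in whether library 2 or 8 is the higher one.

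For the genes that were lower, close profiles were common. Calm2 had 2667 of the 10800 rows within a distance of 0.25, Calm3 had 2823 and Ncs1 had 463. Calm2 and Calm3 lay 0.090 apart, and Ncs1 lay 0.29 from each. The nearest rows to Calm2 were Gmcl1, Uba1, which encodes the enzyme that activates ubiquitin, and Cd59a, each within 0.013. The nearest to Calm3 were Akt1s1, an mTORC1 component, Tmem158 and Fam102b, and the nearest to Ncs1 were Nova2, a neuronal splicing factor, Shank2, a postsynaptic scaffold, and Plcb4, a phospholipase C.

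The wider set of calcium and calmodulin genes was compared with the members through 11 fixed lists. These lists, like the marker lists below, were drawn up with earlier results of these data known. Their counts beside those of all rows are therefore a description and no test of these genes as a set. Apart from the members the lists hold 142 genes, of which 112 have a row. Of these 112, 6 fell and none rose in the limma test over all rows (5.36% called, against 2.37% of all rows). At an unadjusted p under 0.05, 25 were lower and 6 higher. Of all 11747 rows, 2474 had an unadjusted p under 0.05 in either direction. Counts at that threshold, here and in the calcium and marker lists below, are to be read beside that share. The median log2 difference of the 112 genes was -0.07, against 0.0024 over all rows. The 6 were Gap43, Basp1, Kcnd3, Atp2b2, Slc8a1 and Cacna1g. Of these, Gap43 passed whichever library was left out, whereas Kcnd3 was lost without library 8, Cacna1g without library 2 or 8, and Atp2b2, Slc8a1 and Basp1 without library 1, 2 or 8. That left 3, 2 and 1 of the 6 called without library 1, 2 and 8, and all 6 and 1 more without library 7.

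Among small calmodulin-binding proteins, of 5 other listed genes of the Pcp4 family and the calpacitins, which hold calmodulin at the membrane, 2 fell and none rose. Gap43, a growth cone protein, had 4086 and 3492 normalized counts with doxycycline, against 11036 and 9445 with vehicle, and fell by 1.43 ± 0.11 on the log2 scale (limma, adjusted p = 0.00962). Basp1, a related membrane protein, fell by 0.66 ± 0.11 (limma, adjusted p = 0.0494), a call also lost under TMM factors, under quantile normalization and without an intensity trend (adjusted p = 0.05, 0.0607 and 0.112). Pcp4l1, the closest paralog of Pcp4, singled out after its values were seen, had 182 and 169 normalized counts with doxycycline against 101 and 92.3 with vehicle, a log2 difference of 0.85 ± 0.18, not past the threshold (limma, adjusted p = 0.0772).

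The other EF-hand genes listed with calretinin gave no call. The 8 that have a row are all S100 proteins and centrins. None of them passed over all rows, and none was below an unadjusted p of 0.05 either. Their median log2 difference was 0.13. S100a10 had a value of -0.47 ± 0.21 (limma, adjusted p = 0.270), S100a1 one of 0.54 ± 0.32 (adjusted p = 0.397) and Cetn2, a centrin, one of 0.19 ± 0.10 (adjusted p = 0.358). Calb1 (calbindin), Pvalb (parvalbumin) and Scgn (secretagogin), the buffers most often named with calretinin, have no row, which a gene under about 101 reads in every library would not have.

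Among the relatives of Ncs1, none of 6 other listed neuronal calcium sensor genes passed, and 1 was higher at an unadjusted p under 0.05. That was Cabp7, at 1.48 ± 0.31 (limma, adjusted p = 0.0774). Ncald, which encodes neurocalcin delta, had a value of -0.15 ± 0.12 (adjusted p = 0.518) and Hpcal1, a hippocalcin-like sensor, one of 0.09 ± 0.08 (adjusted p = 0.599). Of 5 listed genes for proteins that Ncs1 binds or regulates, Kcnd3, a Kv4 potassium channel subunit, fell to 257 and 214 normalized counts with doxycycline, against 508 and 544 with vehicle, a log2 difference of -1.16 ± 0.14 (limma, adjusted p = 0.0234). The 5 had a median of -0.24, none rose, and 3 were lower and none higher at an unadjusted p under 0.05.

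The lists of calmodulin-dependent kinases, of calcineurin and its regulators and of other calmodulin-regulated enzymes gave no call over all rows. These lists hold inhibitors and other regulators as well as enzymes. Of 18 listed calmodulin-dependent kinases and inhibitors none passed in limma, with 4 lower and 2 higher at an unadjusted p under 0.05 and a median of -0.10. Camk4, a nuclear kinase of neurons, had 134 and 108.5 normalized counts with doxycycline, against 232 and 292 with vehicle (log2 difference -1.10 ± 0.20; limma, adjusted p = 0.0548). Camk2b, a subunit of calmodulin kinase II, was at -0.43 ± 0.09 (adjusted p = 0.0740) and Camk1g at -0.53 ± 0.14 (adjusted p = 0.122). Of 12 listed calcineurin and NFAT pathway genes none passed, with 2 lower and 1 higher at an unadjusted p under 0.05 and a median of 0.03. Rcan2, a calcineurin regulator, was at -0.43 ± 0.10 (adjusted p = 0.0992), Nfatc3 at 0.20 ± 0.07 (adjusted p = 0.187) and Ppp3r1, the regulatory subunit of calcineurin, at -0.21 ± 0.08 (adjusted p = 0.200). Of 12 other calmodulin-regulated enzyme genes none passed and 3 were lower at an unadjusted p under 0.05, with a median of -0.03. They include Adcy1, the calcium-stimulated adenylyl cyclase, at -0.52 ± 0.12 (adjusted p = 0.0950), Myo5a, an unconventional myosin, at -0.33 ± 0.08 (adjusted p = 0.101) and Pde1b, a calcium-activated phosphodiesterase, at -0.32 ± 0.11 (adjusted p = 0.174).

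Genes that bring calcium in or take it out fell in a few cases. Of 23 listed pumps, exchangers and store channels, 2 fell and none rose (4 lower and 1 higher at an unadjusted p under 0.05), with a median of -0.04. Atp2b2, a plasma membrane calcium pump, had 363 and 356 normalized counts with doxycycline, against 598 and 602 with vehicle, and changed by -0.74 ± 0.10 (limma, adjusted p = 0.0301). Slc8a1, the sodium-calcium exchanger, changed by -0.80 ± 0.11 (adjusted p = 0.0333), a call also lost without an intensity trend (adjusted p = 0.0687). Of 13 listed voltage-gated calcium channel subunits 11 had values below 0, with a median of -0.29, and 1 fell while none rose (none higher at an unadjusted p under 0.05, 6 lower). That was Cacna1g, a T-type channel, at 819 and 709 with doxycycline against 1819 and 1327 with vehicle. Its change was -1.03 ± 0.16 (limma, adjusted p = 0.0455), a call also lost without an intensity trend (adjusted p = 0.0974). The 11 calcium-binding proteins of the secretory pathway gave no call, and none at an unadjusted p under 0.05. Hspa5 was at -0.15 ± 0.08 (adjusted p = 0.370), Calr (calreticulin) at -0.19 ± 0.13 (adjusted p = 0.467) and Rcn2 at -0.09 ± 0.07 (adjusted p = 0.541).

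**Figure D4:**
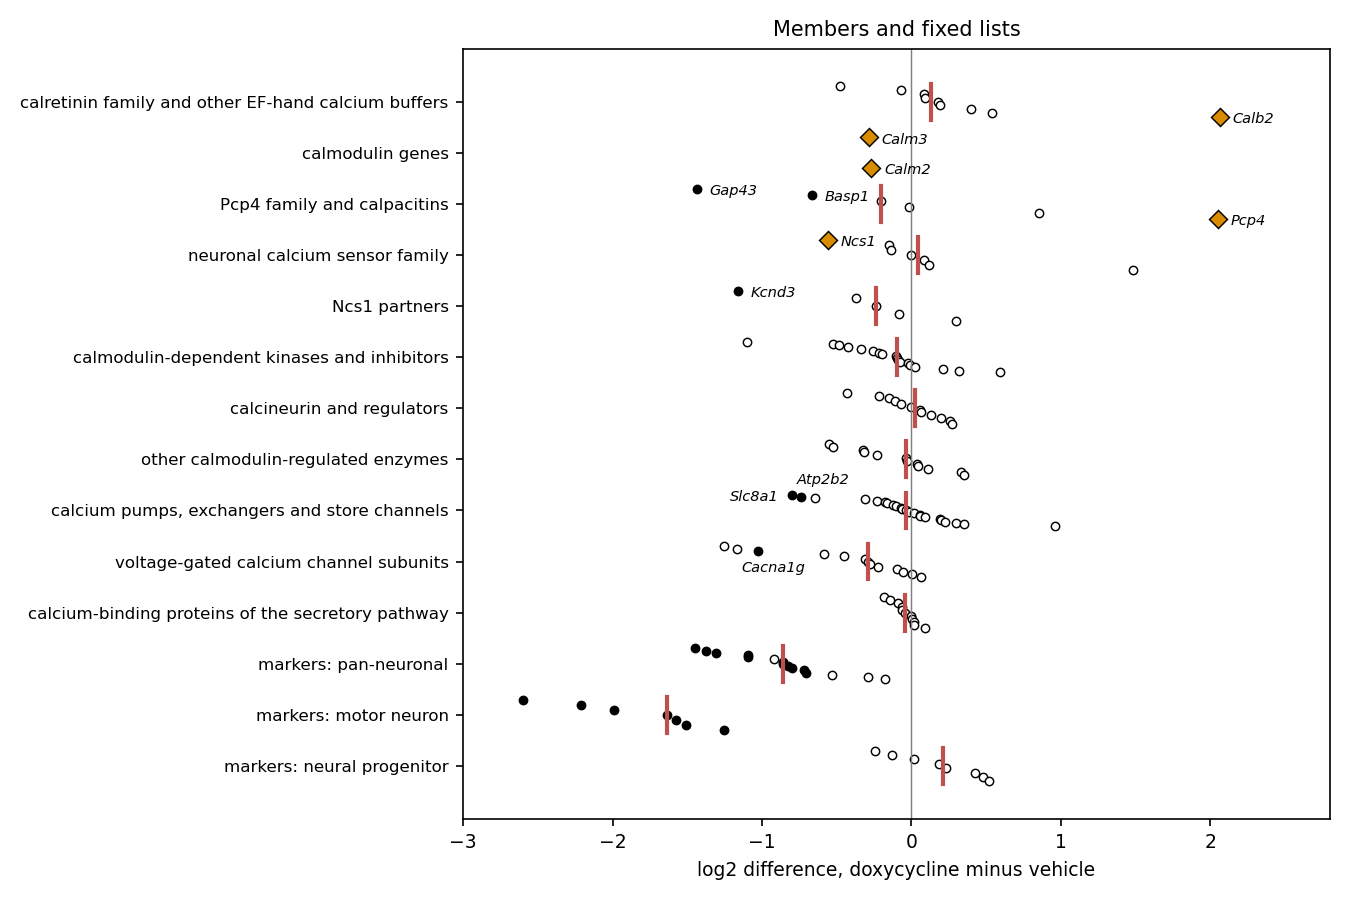
log2 differences, doxycycline minus vehicle, of every listed gene in the 11 calcium and calmodulin lists and in the pan-neuronal, motor neuron and neural progenitor marker lists, 1 row per list. Orange diamonds are the 5 members, filled circles other genes past the limma test, open circles genes that did not pass, and red bars the median of the genes other than members in lists with more than 2 of them. Calb2 and Pcp4 lie to the right of the other genes of these lists, V2 markers not being drawn, and most pan-neuronal and all motor neuron markers are filled and lie left of 0.

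Markers of the cells in the cultures moved between the same libraries. All 15 pan-neuronal markers had values below 0, with a median of -0.86, and 11 fell in the limma test (8, 5, 8 and 13 without library 2, 8, 1 and 7; Elavl2, Nefl, Nefm, Stmn2 and Ina in each of these fits). Their summed normalized counts were 85978 and 68766 in libraries 2 and 8 with doxycycline, against 169684 and 150157 in libraries 1 and 7 with vehicle. All 7 listed motor neuron markers of 8 fell, 6 of them whichever library was left out and Chat in all but the fit without library 8, and their sums were 4185 and 3683 with doxycycline, against 13088 and 12693 with vehicle. Without an intensity trend the pan-neuronal markers Elavl2, Elavl3, Elavl4, Nefl, Dcx, Ina, Mapt and Syn1 and the motor neuron marker Isl1 lost their calls. For Elavl2, Nefl and Ina the adjusted p was then 0.0785, 0.0577 and 0.0624 (limma). Elavl2, Dcx and Isl1 also lost theirs with robust empirical Bayes, and Dcx under TMM factors and quantile normalization. Of the 15 pan-neuronal markers, 14 had a more negative log2 difference than Calm2 and than Calm3, and 12 a more negative one than Ncs1. The part of the neuronal markers in the lower values of Calm2, Calm3, Ncs1, Gap43 and the channel genes was not tested. Of 8 neural progenitor markers none passed (2 higher and 1 lower at an unadjusted p under 0.05), with a median of 0.21 and sums of 34464 and 38391 with doxycycline against 34028 and 35630 with vehicle.

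For Calb2 and Pcp4 the markers of other cells known for them were set beside their values. Of 7 markers of V2 interneurons 5 have a row, and Sox14 and Sox21 rose while Lhx4 fell. At an unadjusted p under 0.05, 3 of the 5 were higher and 1 lower. Their sums were 3425 and 3247 with doxycycline, against 2643 and 2247 with vehicle, and Sox14, which had 54.2 and 105 normalized counts with doxycycline against 0 and 1.07 with vehicle, lost its call without library 2 or 8 and with a pseudocount of 0.5 (limma, adjusted p = 0.0566), Sox21 without library 1, 2 or 8 and Lhx4 without library 1 or 8. Calretinin is also made by mesothelium. At an unadjusted p under 0.05, 3 mesothelial and epithelial markers were higher and none lower. They were Wt1, Upk3b at 1.00 ± 0.18 and Lrrn4 at 0.97 ± 0.22, the last 2 not past the threshold (limma, adjusted p = 0.0531 and 0.0888). Krt8 and Krt18 make up most of the sums given next. Of 8 mesothelial and epithelial markers 7 have a row, all with values above 0, a median of 0.38 and sums of 16123 and 12349 with doxycycline against 12116 and 10843 with vehicle, and Wt1 rose by 0.69 ± 0.10 (limma, adjusted p = 0.0355), a call lost without library 1, 2 or 8, while Msln has no row. Of 6 sensory neuron and neural crest markers 2 have a row, both with values below 0 and neither past the limma test, nor at an unadjusted p under 0.05. Of 6 Purkinje cell markers, the cells that gave Pcp4 its name, 2 have a row, both with values below 0, and Pcp2 has none. Neither passed the limma test, and 1 was lower at an unadjusted p under 0.05. That was Lhx1, at -0.97 ± 0.19 (limma, adjusted p = 0.0636). Without an intensity trend Sox21, Lhx4 and Wt1 also lost their calls (limma, adjusted p = 0.0856, 0.0829 and 0.0522). Lhx4 lost its call under quantile normalization too (limma, adjusted p = 0.0544). The part of V2, mesothelial or other cells in the Calb2 and Pcp4 values was not tested.

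The 5 endoderm and 5 pluripotency markers with a row gave no call, and none at an unadjusted p under 0.05. Their sums differed more between libraries of a group than between groups, at 8440 and 16482 with doxycycline against 10359.5 and 17704 with vehicle for endoderm. For pluripotency they were 1674 and 789 with doxycycline against 1890.1 and 944 with vehicle. In both cases libraries 2 and 1 stood apart from 8 and 7, as they did in the ratio of Calm2 to Calm3. The libraries held an estimated 22434756 to 30235772 reads, and their normalized counts summed to between 26449600 and 27047500.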

How the data were processed

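RNA of 4 bulk libraries, made with TruSeq reagents, was sequenced on an Illumina HiSeq 2000, per the labels. CASAVA, TopHat2, HTSeq, DESeq and the build mm9 appear in the submitters' processing notes, where no version or role is stated. The deposited table holds 1 signal value per row and library, a normalized read count. All values under 150 lie within 0.1 steps of whole multiples of 1 step per library; taking the step as 1 read gives estimated read numbers, used for depth and counting intervals. No count test was run.

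Column initials gave each library its group, and column numbers, which do not match the labels' replicates, only name libraries. Deposited values were analysed as log2(normalized count + 1) over all 11747 rows (lowest mean 40.1, so the minimum of 10 removed none) with limma 3.58.1 in R 4.3.3: moderated two-sided tests with an intensity trend, Benjamini-Hochberg adjustment, threshold 0.05, 2 residual and 3.83 prior degrees of freedom. An exact permutation test of 2 against 2 cannot go below p = 0.333. Symbols come from the table, with 375 more rows named through their accession in RefSeq. The induced gene and a few list genes are not reported here or counted in the lists.

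Members and lists were chosen with earlier results of these data known. Named genes are the members, list genes past the test or else the 3 with the smallest p, and the nearest profiles; Pcp4l1 was added after its values were seen. Alternatives were pseudocounts, filters, quantile and TMM scaling, empirical Bayes settings, each library left out and a replicate block. Python 3.11.15, pandas 2.3.3, numpy 2.4.6, scipy 1.17.1 and matplotlib 3.10.9 were used.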

Additional observations from a re-analysis of the deposited data

How the results depend on the processing

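The log2 differences of the 5 members can move only with the pseudocount, the scaling or the libraries used. With the pseudocounts and TMM factors they moved by less than the spread between replicates. Under quantile normalization Calb2 was at 1.64 and Calm3 at -0.23. The number of calls depended on the fit. Over all rows 68 were higher and 210 lower, among the listed calcium and calmodulin genes 0 and 6, and among the markers 3 and 19. Without an intensity trend these were 27 and 78, 1 and 4, and 1 and 9, and with robust empirical Bayes they were 132 and 287, 0 and 8, and 4 and 16. Leaving out 1 library gave 2 to 156 higher and 42 to 338 lower rows, 1 to 7 lower calcium and calmodulin genes, and 0 to 6 higher and 11 to 23 lower markers; such a fit has 1 library in a group, assumed to vary like the others. With a replicate block that pairs library 1 with 2 and 7 with 8 by column number, 1636 rows were higher and 1872 lower. Among them were 10 and 32 of the calcium and calmodulin genes and 17 and 32 markers. Adjusted p-values of that fit, such as 9.14e-172 for Nefm (limma), are too small to be taken at face value with 4 libraries. Nothing is read from its calls. The differences of library 1 from 7 and of 2 from 8 had a correlation of 0.63 over genes, but no label pairs the libraries. Of the 28 called list and marker genes, 15 lost the call without an intensity trend and 3 under quantile normalization. Robust empirical Bayes lost 3, TMM factors 2 and a pseudocount of 0.5 lost 1, and the cause was not tested. None of 363 refits changed a direction, but most could not. The groups of these genes do not overlap, and filters, empirical Bayes settings and the block leave a difference as it is. Depth limits Calb2 and Pcp4, whose vehicle values rest on 49 and 92 estimated reads.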
